A study of Mus musculus with 19 samples.

Results

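The 45 genes described here encode the machinery of mitosis: the cyclin-dependent kinase that starts it, the kinases that run it, the spindle checkpoint, the kinetochore, the spindle motors, the cytokinesis apparatus, the proteins that shape mitotic chromosomes, and the transcription factors Foxm1 and Mybl2. They were taken from a list of symbols, with no measured value in the rule, and all 45 were found once each among the 35598 genes with a transcript in the data. Their RNA was followed in cultured primary myoblasts from mouse hind-limb muscle in 6 groups. WT cells were sampled as proliferating myoblasts after 24 h in growth medium (n = 3), as differentiated myotubes at 48 h (n = 3) and as fused myotubes at 72 h (n = 4). Cells labelled Glud1KO, described as lacking Glud1, the mitochondrial enzyme that interconverts glutamate and α-ketoglutarate, were sampled at the same stages (n = 3, 2 and 4). How Glud1 was removed, the strain and the age of the mice are not given in the sources used here. The labels call the samples of a group replicates without saying whether they came from separate animals or cultures, so p-values measure only the spread between these samples, which may be technical.

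The 19 libraries held between 16087057 and 30657153 estimated counts on matched genes. The names under which the data were deposited mark both genotypes as KO and add a T to those labelled Glud1KO, with no explanation, so genotype and any further treatment that the T may stand for cannot be told apart. Total Glud1 RNA was 189 ± 4.16 and 187 ± 2.69 CPM (counts scaled to library size with TMM factors, mean ± SD) in WT and Glud1KO myoblasts, 106 ± 5.23 and 99.8 ± 4.48 at 48 h, and 135 ± 4.49 and 133 ± 3.82 at 72 h. It did not separate the genotypes in edgeR's quasi-likelihood test (adjusted p 0.849, 0.193 and 0.748), so every direction below rests on the labels. The myoblast identity was borne out by Pax7, the satellite cell factor, at 102 ± 3.19 CPM in WT and 103 CPM in Glud1KO myoblasts on average. Among markers of other cells, the summed fibroblast, endothelial, immune and Schwann cell lists reached at most 7.59, 1.25, 1.72 and 2.7 CPM in any library, with the fibroblast marker Dpt at 0 throughout. The pericyte and smooth muscle list summed to between 33.7 and 182 CPM, carried by Rgs5 in myoblasts and Abcc9 in myotubes.

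Mitosis is driven by CDK1 bound to B-type cyclins and ends when the anaphase-promoting complex (APC/C), an ubiquitin ligase, destroys cyclin B and securin. Between these events the Aurora and Polo kinases, the kinetochores and the spindle motors align the chromosomes, and the midzone proteins then split the cell. Most of these genes are transcribed in a late wave of the cell cycle: in quiescent or differentiating cells the DREAM complex represses them through a promoter element called the CHR, and in cycling cells B-MYB (the product of Mybl2) with MuvB, and later FOXM1, activate them, often with NF-Y bound at CCAAT boxes. Myoblasts leave the cell cycle for good as they become myotubes, and silencing of mitotic genes is a textbook part of that step.

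Since members that move together may share promoter letters, the promoters were searched. RefSeq (GRCm38.p6) gave a window from 250 bases before to 50 bases after the transcription start for 37 of the 45 genes; Ccna2, Cdc25c, Aurkb, Incenp, Tpx2, Kif20a, Smc4 and Foxm1 had none in the table. A CHR, searched as TTTGAA or TTCGAA on either strand, was present in 28 of 37 (75.7%), against 19.4% of all 27025 promoters and 13.8% of the 11127 promoters of genes tested. A CCAAT on either strand was also present in 28 of 37 (75.7%), against 37.9% and 38.6%. Both stood in 25 of 37 windows (67.6%), against 7.7% and 5.94%, and at least 2 CCAAT in 18 (48.6%), against 12.2% and 14.7%. E2F words (TTCGCGC with its variants TTGGCGC and then TTCCCGC and finally TTGCCGC, either strand) stood in 7 (18.9%), against 9.69% and 16.5%. An E2F word on one strand can share bases with a CCAAT on the other. A list of 41 S phase genes, of which 33 had a window, held the CHR in 24.2% and the E2F words in 60.6%. These are matches of letters and not measured binding.

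The following stretches end at the base before the transcription start in RefSeq and run 5′ to 3′ on the gene's strand, with CHR and CCAAT letters in capitals on whichever strand they match (TTTGAA or its complement TTCAAA for the CHR, and CCAAT or its complement ATTGG). Each is from the most abundant member of its role, by mean CPM, whose CHR lies wholly before the start, because the levels of these genes are traced below. By that rule Ect2 stands for the cytokinesis genes, since the CHR matches of Anln and Racgap1 begin after the start and that of Prc1 runs across it. The CHR matches of the kinase and kinetochore genes lie after the start, and of the transcription factors only Mybl2 has a window, which holds no match. Gene ends elsewhere in the text are those of GENCODE, and by these the last 26 bases of the Cdk1 stretch and the last 9 of the Cdc20 stretch lie inside the gene, and the Kif11 stretch ends 21 bases short of it.
Cdk1 chr10:69352913-69353012 (minus strand): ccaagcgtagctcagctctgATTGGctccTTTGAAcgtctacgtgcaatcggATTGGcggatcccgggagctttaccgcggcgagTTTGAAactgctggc
Cdc20 chr4:118437344-118437443 (minus strand): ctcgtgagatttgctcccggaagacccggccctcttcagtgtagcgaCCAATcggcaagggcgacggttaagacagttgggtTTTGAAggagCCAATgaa
Kif11 chr19:37376282-37376381 (plus strand): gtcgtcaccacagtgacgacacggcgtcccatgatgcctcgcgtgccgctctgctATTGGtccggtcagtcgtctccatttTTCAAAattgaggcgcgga
Ect2 chr3:27153879-27153998 (minus strand): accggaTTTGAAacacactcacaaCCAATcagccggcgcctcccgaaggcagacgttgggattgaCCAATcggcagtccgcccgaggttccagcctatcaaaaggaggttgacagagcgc
Top2a chr11:99024190-99024289 (minus strand): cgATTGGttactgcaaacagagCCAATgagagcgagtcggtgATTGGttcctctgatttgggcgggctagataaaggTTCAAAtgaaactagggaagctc
Within these stretches Cdk1 holds CHR matches that begin at positions -71 and -15 from the start, the first of them close to an ATTGG at -80, Cdc20 one at -18, Kif11 one at -19, Top2a one at -23 and Ect2 one at -114. The full windows of Top2a and Ect2 hold further CHR matches outside these stretches.

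The mitosis genes were abundant in myoblasts and most were nearly silent in myotubes, and the fall went further by 48 h in cells labelled Glud1KO. Pttg1 was an exception, at 88.5% of its myoblast level in WT and 89.3% in Glud1KO at 72 h. Summed over the 45 genes, the level was 4869, 4968 and 4840 CPM in WT myoblasts, 182, 170.0 and 186 CPM at 48 h, and 90.8, 89.6, 95.3 and 86.7 CPM at 72 h. In Glud1KO libraries it was 5499, 5362 and 5404 CPM in myoblasts, 99.3 and 100.5 CPM at 48 h, and 92.9, 89.7, 91.0 and 89.5 CPM at 72 h. The genotypes did not overlap in myoblasts, where Glud1KO was higher, or at 48 h, where it was lower. They overlapped at 72 h, also without Ube2c, whose level is in doubt for reasons given below (80.4 to 85.6 CPM in WT and 77.7 to 81.5 CPM in Glud1KO). Taken role by role, the sums at 72 h overlapped in 6 of the 8 roles. Those of the kinases with the passenger complex and of the spindle motors were lower in Glud1KO without overlap. No member of either role was called at 72 h, and 3 of the 7 in the first were higher in Glud1KO. The scaffold gene Incenp held most of the first sum. How many of all genes were lower without overlap at 72 h was not computed, so this has no background. In bulk RNA, fewer dividing cells and less mitotic RNA per cell cannot be told apart, here and below. Each gene's mean at 48 h was lower in Glud1KO than in WT, and for 31 of 45 it still lay above the WT mean at 72 h.

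**Figure D1:**
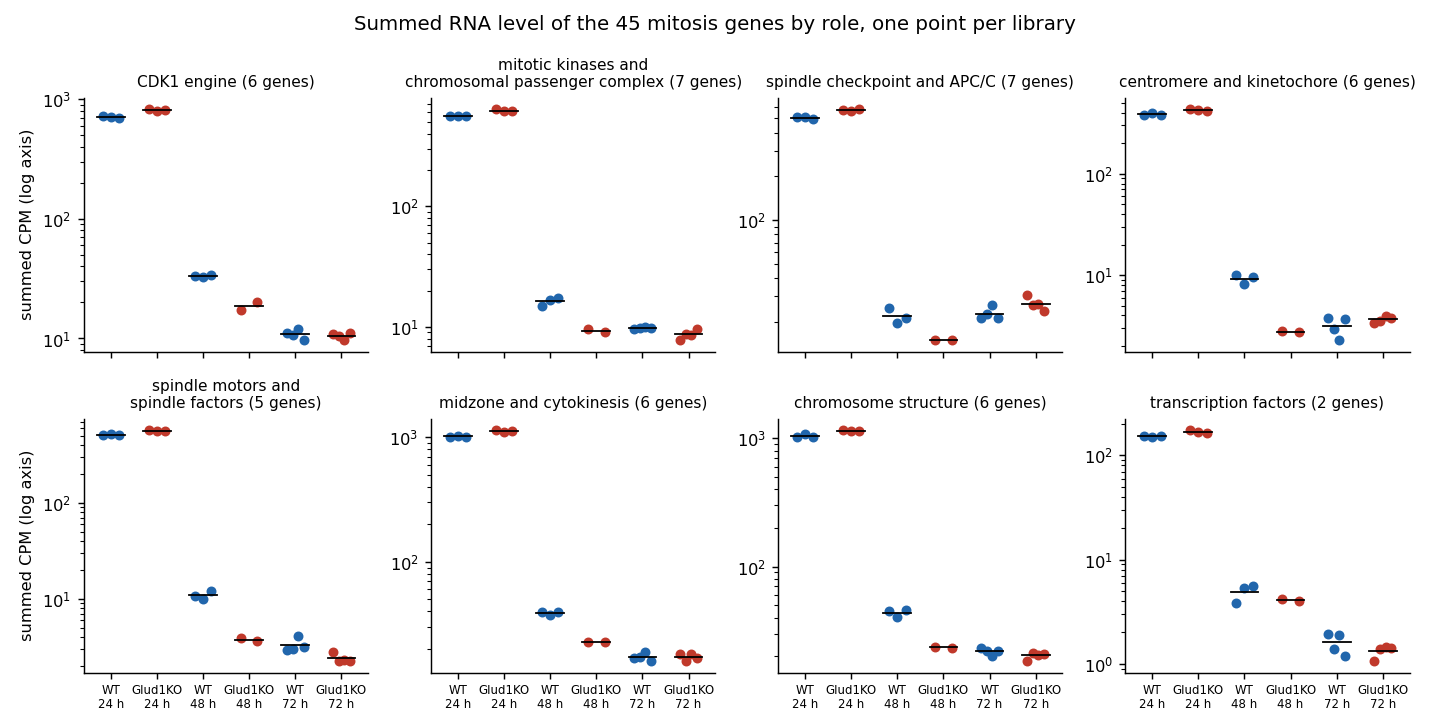
Summed RNA level (CPM, log axis) of the mitosis genes of each role in every library, with one panel per role and one point per library, ordered by genotype and stage. All roles drop by more than an order of magnitude between myoblasts and 48 h. The Glud1KO points at 48 h lie below the WT points in 7 of the 8 roles, but inside the WT range for the transcription factors. Among the 7 are the kinetochore genes (9.26 ± 0.952 CPM in WT against 2.78 ± 0.0767 CPM in Glud1KO, mean ± SD). At 72 h the genotypes overlap in 6 of the 8 roles. The sums of the kinases with the passenger complex and of the spindle motors are lower in Glud1KO there, with no member of either called.

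All 45 genes passed the filter on low counts that left 15123 genes for testing, and they passed through the myoblast libraries in which they are high. Differences are log2 fold changes of Glud1KO over WT or of the later over the earlier stage. Genes were called at a Benjamini-Hochberg adjusted p under 0.05, over all genes tested, in the quasi-likelihood test of edgeR. In WT cells all 45 fell from myoblasts to 48 h (background: 42.6% of all genes called lower), with a median log2 fold change of -5.30, or 39.5-fold. From 48 to 72 h another 40 fell and 2 rose (background 37.7% lower and 37.4% higher), with a median of -1.93. From myoblasts to 72 h all 45 fell (background 43.4%), with a median of -7.25, or 152-fold. The smallest fall, that of Pttg1 (-0.18), was not called without WT replicate 4 at 72 h (adjusted p 0.094) or without WT myoblast replicate 3 (adjusted p 0.0921). It was also not called with DESeq2, effective length offsets, a filter on mean CPM, only the groups compared or a replicate block (adjusted p between 0.0552 and 0.0751). In Glud1KO cells all 45 fell by 48 h (background 42.5%) with a median of -6.65, or 100.5-fold. From 48 to 72 h 23 fell and 7 rose (background 34.4% lower and 35.8% higher), with a median of -0.66. With effective length offsets 3 genes were called higher over that interval in place of 7, and with Ube2c read from its shorter transcript alone 6 were; 16 were called lower without Glud1KO replicate 2 at 48 h. In each comparison with myoblasts no library of one stage overlapped any of the other for any of the 45 genes, and of all genes tested 42.7% (WT, 48 h), 42.5% (WT, 72 h) and 44.8% (Glud1KO, 48 h) were likewise lower without overlap.

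Between genotypes, 22 of the 45 genes were called higher in Glud1KO than in WT myoblasts and none lower (background 4.86% higher). The differences were small, with a median log2 fold change of 0.15, or 1.11-fold, a range of 0.02 to 0.28, and 0.01 as the median of all genes. All 22 calls were lost when effective lengths entered the model as offsets, although the median was then 0.18, and between 14 and 28 genes were called when 1 library was left out. The 14 came without replicate 3 of either genotype's myoblasts. In all, 11 genes kept their call whichever library was left out: Cdk1, Ccnb1, Ccna2, Aurka, Nek2, Birc5, Mad2l1, Nuf2, Spc25, Prc1 and Ect2. Beside these values, Myog, the transcription factor of differentiating myoblasts, was at 114 ± 8.89 CPM in WT and 73.6 ± 8.97 CPM in Glud1KO myoblasts (log2 fold change -0.63, edgeR adjusted p 4.11e-07). Embryonic myosin Myh3 was at 221 and 117 CPM on average (-0.92, edgeR adjusted p 1.35e-10). Of the 9 myogenic stage markers 5 were called lower and none higher (background 6.69% lower). The 9 summed to between 1925 and 2104 CPM in WT and between 1667 and 1729 CPM in Glud1KO myoblasts. The fibroblast list summed to between 7.04 and 7.59 CPM in WT and between 3.93 and 4.93 CPM in Glud1KO myoblasts, and the pericyte list to between 40.2 and 44.5 and between 33.7 and 36.6 CPM. The part of these markers' cells in the mitosis genes' difference was not tested.

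At 48 h, 38 of the 45 genes were called lower in Glud1KO than in WT and none higher (background 14.1% lower). The median log2 fold change was -1.20, or 2.29-fold, with a range of -2.61 to -0.08, against -0.01 as the median of all genes. The Glud1KO libraries lay under all WT libraries for 40 of the 45 genes, and for 24.6% of all genes tested; those of Aurkb overlapped although it was called. Of the 38, 30 kept their call whichever library was left out. Birc5, Bub1, Bub1b and Kif4 lost it without Glud1KO replicate 2 (edgeR adjusted p 0.348, 0.0723, 0.104 and 0.379), Cdca8 and Mybl2 without Glud1KO replicate 1 (0.0986 and 0.209), and Aurkb and Ncaph without either. Birc5, Mybl2, Aurkb and Ncaph also lost it without 1 of the WT libraries, replicate 2 for Birc5, replicate 3 for Mybl2 and either of these for Aurkb and Ncaph. With effective lengths as offsets 27 of the 45 were called lower. Beside these values, Pax7 was at 10.6 CPM in WT and 5.63 CPM in Glud1KO libraries on average at 48 h (log2 fold change -0.92, edgeR adjusted p 1.01e-05), and Myod1 (-0.31) and Myf5 (-0.19) were also lower. The fusion genes Mymk (0.27) and Mymx (0.67) were higher, and Myog, Myh3, Ckm and Des were not called. Of the 9 myogenic stage markers 3 were thus lower and 2 higher at 48 h, none was at 0, and the background was 14.1% lower and 11% higher. Among markers of other cells, Ly6a was at 0.503 CPM in WT and 0.0262 CPM in Glud1KO on average (edgeR adjusted p 0.00105). Cspg4 was at 1.25 and 0.531 CPM (edgeR adjusted p 0.00933), and Myh11 at 0.549 and 1.32 CPM (edgeR adjusted p 0.0418). The fibroblast list, which holds Ly6a, summed to between 0.827 and 1.57 CPM in WT and between 0.588 and 1.31 CPM in Glud1KO at 48 h, with Dpt at 0, and the pericyte list to between 73.4 and 83.8 and between 78.3 and 80.2 CPM. The part of these differences in that of the mitosis genes was not tested.

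At 72 h 1 of the 45 genes, Ube2c, was called higher in Glud1KO and none lower (background 13% in either direction), with a median log2 fold change of -0.09. At an unadjusted p under 0.05, edgeR and DESeq2 each found 1 gene higher, again Ube2c, and 6 lower. The share of all genes at that threshold was not computed, so these counts cannot be set against a background. The genotype difference itself changed with stage. From myoblasts to 48 h it moved downward for 38 of 45 genes and upward for none (background 11.3%), with a median change of -1.32. From 48 to 72 h it moved upward for 21 and downward for none (background 8.27%), with a median of 0.94. The second of these counts depended on settings: it was 20 with Ube2c read from its shorter transcript alone, which ends that gene's call (0.16, edgeR adjusted p 0.819), 9 with effective length offsets, 11 when only the groups compared were fitted, and 10 or 13 without replicate 2 or replicate 1 of the Glud1KO libraries at 48 h. In all, 7 genes were called whichever library was left out, namely Cdc25b, Nek2, Cenpf, Kif20a, Racgap1, Top2a and Smc2. Both changes use the same 48 h libraries and are not independent.

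**Figure D2:**
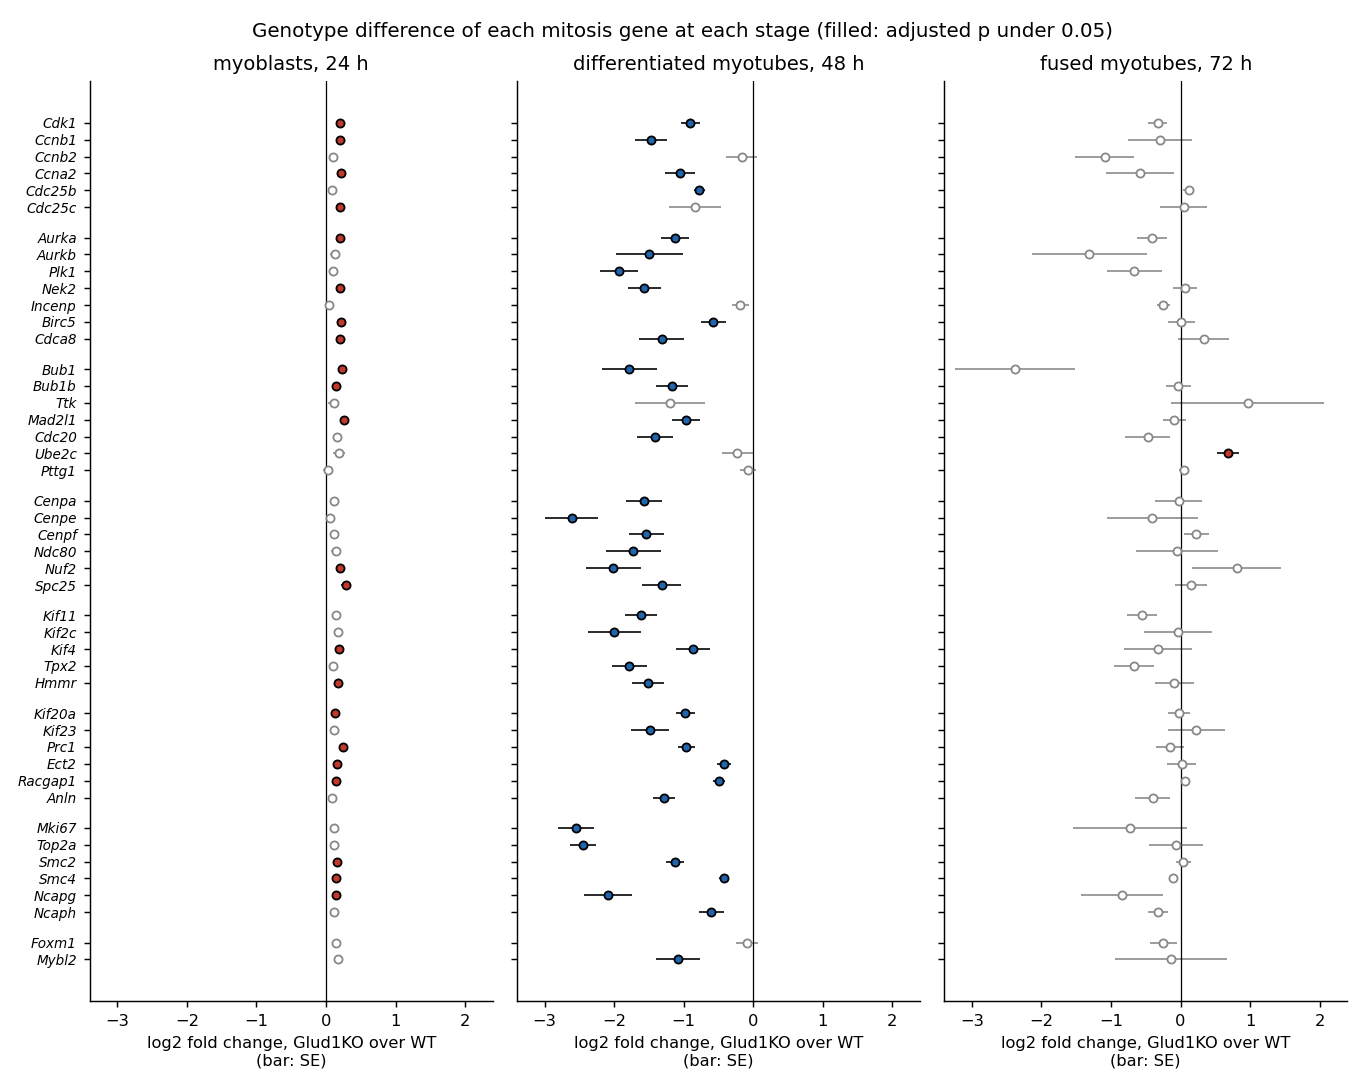
Log2 fold change of Glud1KO over WT for each of the 45 mitosis genes, grouped by role, in myoblasts, at 48 h and at 72 h; points are estimates, bars are SEs and filled points passed an adjusted p of 0.05. The points sit just right of 0 in myoblasts (0.02 to 0.28), left of 0 at 48 h (-2.61 to -0.08) and on both sides of 0 with wide bars at 72 h.

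The CDK1 engine comprised Cdk1, its cyclins Ccnb1, Ccnb2 and Ccna2, and the phosphatases Cdc25b and Cdc25c that switch it on. Per unit length Cdk1 (ENSMUSG00000019942.13, chr10:69335146-69352938, minus strand) was the most abundant of the 45 genes in myoblasts, at 325.9 TPM (the length-scaled unit) in WT and 377.5 TPM in Glud1KO, and Cdc25c the least, at 17.8 and 20.1 TPM. Cdk1 in the WT libraries measured 234, 228 and 223 CPM in myoblasts, 7.02, 5.75 and 6.06 at 48 h and 3.38, 3.17, 2.96 and 2.23 at 72 h. Cdk1 in the Glud1KO libraries measured 271, 258 and 264 CPM in myoblasts, 3.26 and 3.41 at 48 h and 2.26, 2.11, 2.3 and 2.6 at 72 h. The genotypes did not overlap in myoblasts, where Glud1KO was higher, or at 48 h, where it was lower. The log2 fold change of Cdk1 was 0.21 (SE 0.04, edgeR adjusted p 0.000763) in myoblasts and -0.90 (SE 0.13, edgeR adjusted p 1.01e-05) at 48 h. Cyclin B1, encoded by Ccnb1, is the partner that carries CDK1 into mitosis. Ccnb1 RNA was at 158, 159 and 155 CPM in WT myoblasts, 2.8, 2.35 and 2.99 at 48 h and 0.274, 0.127, 0.493 and 0.165 at 72 h. For Glud1KO, Ccnb1 values were 182, 175 and 184 CPM in myoblasts, 0.749 and 1.21 at 48 h and 0.125, 0.389, 0.17 and 0.133 at 72 h. Ccnb1 fell 57.4-fold by 48 h in WT and 183-fold in Glud1KO, and at that stage the genotypes did not overlap and differed by -1.47 (SE 0.23, edgeR adjusted p 1.88e-05).

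Cdc25b, which activates CDK1 at the centrosome, kept a larger share of its RNA than most members. In WT libraries Cdc25b stood at 106, 101 and 108 CPM in myoblasts, 19.7, 19.9 and 20 at 48 h and 6.58, 6.53, 7.59 and 6.55 at 72 h. In Glud1KO libraries Cdc25b stood at 111, 112 and 110 CPM in myoblasts, 10.7 and 12.5 at 48 h and 8.09, 7.34, 6.6 and 7.66 at 72 h. The genotypes did not overlap at 48 h, where Glud1KO was lower at a log2 difference of -0.77 (SE 0.076, edgeR adjusted p 1.58e-08). Its genotype difference moved by -0.85 (SE 0.086, edgeR adjusted p 4.38e-08) from myoblasts to 48 h and by 0.89 (SE 0.11, edgeR adjusted p 2.62e-06) from 48 to 72 h, so the gap was wider at 48 h than before or after. Of the 6 genes, 4 were called higher in Glud1KO myoblasts (Cdk1, Ccnb1, Ccna2 and Cdc25c) and 4 lower at 48 h (Cdk1, Ccnb1, Ccna2 and Cdc25b). Cdc25c lost its myoblast call without any one of the 6 myoblast libraries or without Glud1KO replicate 2 at 72 h (adjusted p between 0.0512 and 0.188). Ccnb2, the second B-type cyclin, had a log2 fold change of -0.17 at 48 h and was not called. Summed over the role, the level was 712 ± 9.15 CPM in WT and 808 ± 14.4 CPM in Glud1KO myoblasts, 33.3 ± 0.603 and 18.8 ± 1.94 at 48 h, and 10.9 ± 0.969 and 10.6 ± 0.602 at 72 h (mean ± SD).

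The mitotic kinases were Aurka, Aurkb, Plk1 and Nek2, and Incenp, Birc5 and Cdca8 encode the partners that hold Aurora B at the centromere in the chromosomal passenger complex. Plk1 (ENSMUSG00000030867.7, chr7:122159439-122169873, plus strand), the Polo kinase of spindle assembly and mitotic entry, followed the common course. Plk1 in the WT libraries measured 102, 99.6 and 105 CPM in myoblasts, 2.13, 1.87 and 2.36 at 48 h and 0.639, 0.317, 0.308 and 0.288 at 72 h. Plk1 in the Glud1KO libraries measured 114, 111 and 104 CPM in myoblasts, 0.535 and 0.577 at 48 h and 0.188, 0.111, 0.256 and 0.466 at 72 h. Every Glud1KO library at 48 h lay under every WT library of that stage, a difference of -1.93 (SE 0.28, edgeR adjusted p 6.83e-06). Incenp, the scaffold of the passenger complex, did not follow it after 48 h. Incenp RNA was at 113, 112 and 119 CPM in WT myoblasts, 4.22, 5.53 and 5.14 at 48 h and 5.34, 5.39, 5.55 and 5.6 at 72 h. For Glud1KO, Incenp values were 120, 117 and 117 CPM in myoblasts, 4.55 and 4.25 at 48 h and 3.89, 4.95, 4.68 and 4.86 at 72 h. Its genotypes overlapped at 48 h, with a log2 fold change of -0.18 that was not called, and at 72 h all 4 Glud1KO libraries lay under all 4 WT libraries without a call (log2 fold change -0.25, SE 0.093, edgeR adjusted p 0.102). From 48 to 72 h Incenp did not change detectably in WT (0.13).

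Aurkb was among the 3 genes with the steepest fall by 48 h in WT, with a log2 fold change of -5.93. Of the 7 genes of this role, 4 were called higher in Glud1KO myoblasts (Aurka, Nek2, Birc5 and Cdca8) and 6 lower at 48 h, with Incenp as the exception and a median of -1.32. Cdca8 lost its myoblast call without any one of the 6 myoblast libraries (adjusted p between 0.0633 and 0.14). Nek2, a kinase of centrosome separation, took opposite courses in the genotypes from 48 to 72 h, as Cenpf and Smc2 below did. In Glud1KO it rose by 1.07 (SE 0.26, edgeR adjusted p 0.000888), while in WT it fell (-0.56). The test of that difference gave 1.63 (SE 0.31, edgeR adjusted p 0.000478), and with effective length offsets the adjusted p was 0.154. The rise in Glud1KO was not called without replicate 2 at 48 h (0.74, adjusted p 0.0742). The fall in WT was not called with effective length offsets (-0.26, adjusted p 0.513). Summed levels were 560 ± 4.42 and 620 ± 13 CPM in WT and Glud1KO myoblasts, 16.3 ± 1.25 and 9.32 ± 0.431 at 48 h, and 9.83 ± 0.146 and 8.68 ± 0.742 at 72 h.

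The spindle checkpoint and the APC/C pathway were represented by the checkpoint kinases Bub1 and Ttk, by Bub1b and Mad2l1, which hold the APC/C in check, by its activator Cdc20, by its ubiquitin-conjugating enzyme Ube2c, and by Pttg1, the securin that it destroys. Cdc20 (ENSMUSG00000006398.15, chr4:118432901-118437352, minus strand) fell at each step in WT. In WT libraries Cdc20 stood at 125, 120 and 128 CPM in myoblasts, 3.46, 2.13 and 2.75 at 48 h and 0.776, 0.508, 1.11 and 0.577 at 72 h. In Glud1KO libraries Cdc20 stood at 140, 136 and 139 CPM in myoblasts, 0.642 and 1.42 at 48 h and 0.502, 0.334, 0.639 and 0.599 at 72 h. At 48 h both Glud1KO libraries lay under the 3 WT libraries, and the difference was -1.42 (SE 0.26, edgeR adjusted p 0.000144). Mad2l1 had one of the 3 largest rises in Glud1KO myoblasts. Mad2l1 in the WT libraries measured 65.9, 67.2 and 61.2 CPM in myoblasts, 3.79, 2.7 and 3.59 at 48 h and 1.96, 2.98, 1.85 and 2.14 at 72 h. Mad2l1 in the Glud1KO libraries measured 77.2, 75.2 and 79.4 CPM in myoblasts, 1.6 and 1.83 at 48 h and 2.32, 2.45, 1.83 and 1.73 at 72 h. The genotypes did not overlap in myoblasts, with Glud1KO higher at a log2 difference of 0.26 (SE 0.055, edgeR adjusted p 0.00245), or at 48 h, with Glud1KO lower at a log2 difference of -0.97 (SE 0.2, edgeR adjusted p 0.000567). The 48 h difference of Mad2l1 was -0.68 with effective length offsets, and its adjusted p 0.0675.

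Pttg1 (ENSMUSG00000020415.16, chr11:43420250-43426251, minus strand) kept the largest share of its RNA of the 45 genes. Pttg1 RNA was at 12.7, 12.5 and 13.4 CPM in WT myoblasts, 6.17, 4.88 and 5.91 at 48 h and 11.7, 11.7, 11.7 and 10.5 at 72 h. For Glud1KO, Pttg1 values were 12.5, 13.1 and 13.9 CPM in myoblasts, 5.35 and 5.35 at 48 h and 11.3, 11.8, 11.9 and 11.9 at 72 h. Its level at 48 h was under its myoblast level in every library, and by 72 h it was back near it in both genotypes, with no called difference between them at any stage. The rise from 48 to 72 h was 1.00 (SE 0.083, edgeR adjusted p 2.22e-11) in WT and 1.13 (SE 0.1, edgeR adjusted p 1.58e-10) in Glud1KO. By TPM it went from 38th of the 45 genes in WT myoblasts to 2nd at 48 h and 1st at 72 h. The checkpoint kinases ended at very few counts: Ttk had 2 counts over the 4 WT libraries at 72 h, 1068-fold under WT myoblasts (approximate 95% counting interval 295.2 to 8821), and Bub1 had 2 counts over the 4 Glud1KO libraries, 11.5-fold under the 48 h level (2.56 to 105.8). These intervals treat the rounded estimated counts as read counts and leave out the spread between libraries, so they understate the error. Of the 7 genes, 3 were called higher in Glud1KO myoblasts (Bub1, Bub1b and Mad2l1) and 4 lower at 48 h (Bub1, Bub1b, Mad2l1 and Cdc20), with a median of -1.17. Bub1 lost the myoblast call without replicate 3 of either genotype (adjusted p 0.0652 and 0.0858) and Bub1b without any one of the 6 myoblast libraries (0.0546 to 0.141). The 48 h difference of Bub1 was -0.27 with effective length offsets (adjusted p 0.832). Ttk, at -1.20, was not called at 48 h (edgeR adjusted p 0.0877).

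All 6 kinetochore and centromere genes were called lower in Glud1KO at 48 h, with a median of -1.65, the lowest median of any role. Whether roles differ in this was not tested. The 6 are Cenpa, the histone variant that marks the centromere, the motor Cenpe, the corona protein Cenpf, and Ndc80, Nuf2 and Spc25 of the complex that grips microtubules. Cenpe (ENSMUSG00000045328.11, chr3:135212537-135273611, plus strand) had the largest fold of all 45 between genotypes at 48 h. In WT libraries Cenpe stood at 84.4, 99.5 and 88.6 CPM in myoblasts, 2.04, 1.7 and 1.72 at 48 h and 0.0913, 0.19, 0.123 and 0.247 at 72 h. In Glud1KO libraries Cenpe stood at 96.4, 93.8 and 92.1 CPM in myoblasts, 0.214 and 0.367 at 48 h and 0.0627, 0.0556, 0.0426 and 0.4 at 72 h. At 48 h the Glud1KO values lay well under the WT values, 6.12-fold lower (log2 fold change -2.61, SE 0.39, edgeR adjusted p 1.04e-05). At 72 h both genotypes were near 0 and overlapped. Cenpf took another course. Cenpf in the WT libraries measured 77.2, 89.1 and 82.6 CPM in myoblasts, 3.27, 2.39 and 2.92 at 48 h and 2.24, 1.52, 1.3 and 2.02 at 72 h. Cenpf in the Glud1KO libraries measured 92, 87.3 and 89.2 CPM in myoblasts, 0.963 and 0.996 at 48 h and 2.13, 2.17, 2.51 and 1.53 at 72 h. In Glud1KO it was lower than WT at 48 h (log2 fold change -1.54, SE 0.25, edgeR adjusted p 3.61e-05) and then rose by 1.12 (SE 0.26, edgeR adjusted p 0.0005) to 72 h, where the genotypes overlapped. The change of its genotype difference from 48 to 72 h was 1.76 (SE 0.31, edgeR adjusted p 0.000256). With effective length offsets the adjusted p was 0.0558 at 48 h, 0.123 for the rise in Glud1KO and 0.0993 for that change.

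Spc25 showed the largest rise of the 45 genes in Glud1KO myoblasts. Spc25 RNA was at 33.4, 32.5 and 34.3 CPM in WT myoblasts, 1.71, 1.26 and 1.27 at 48 h and 1.05, 0.761, 0.493 and 0.824 at 72 h. For Glud1KO, Spc25 values were 39.4, 43.3 and 39.3 CPM in myoblasts, 0.642 and 0.472 at 48 h and 0.69, 0.89, 0.894 and 1.13 at 72 h. The genotypes did not overlap in myoblasts or at 48 h and did at 72 h, with differences of 0.28 (SE 0.061, edgeR adjusted p 0.00238) and -1.32 (SE 0.29, edgeR adjusted p 0.000991) at the first and second stage. With effective length offsets the 48 h difference of Spc25 was -0.50, with an adjusted p of 0.497. Nuf2 fell most of all 45 genes by 48 h, with log2 fold changes of -6.24 in WT and -8.46 in Glud1KO. None of the 6 kinetochore genes was called lower from 48 to 72 h in Glud1KO (background 34.4%), and all 6 were in WT (background 37.7%). In WT, Cenpf lost its call with the GC and length trend removed (edgeR adjusted p 0.0662) and Spc25 with effective length offsets (0.106). Glud1KO started from a lower level at 48 h and had fewer libraries there. The change in the genotype difference over that interval was called for Cenpa, Cenpf, Nuf2 and Spc25. Nuf2 and Spc25 lost that call without Glud1KO replicate 2 at 48 h (adjusted p 0.0519 and 0.0677), and Cenpa lost it without 9 of the 19 libraries in turn, among them either Glud1KO library at 48 h. Summed levels of the role at 48 h were 9.26 ± 0.952 CPM in WT and 2.78 ± 0.0767 CPM in Glud1KO, and at 72 h 3.17 ± 0.714 and 3.67 ± 0.238.

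Spindle motors and spindle factors came next, with all 5 called lower in Glud1KO at 48 h and a median of -1.61. They are Kif11, the motor that pushes the poles apart, the microtubule depolymerase Kif2c, the chromokinesin Kif4, and the spindle factors Tpx2 and Hmmr. In WT libraries Tpx2 stood at 189, 201 and 193 CPM in myoblasts, 2.99, 2.57 and 4.12 at 48 h and 1.14, 1.14, 0.987 and 0.824 at 72 h. In Glud1KO libraries Tpx2 stood at 210, 208 and 205 CPM in myoblasts, 0.588 and 1.31 at 48 h and 0.69, 0.445, 0.596 and 0.866 at 72 h. Tpx2, the activator of Aurora A on the spindle, fell by 5.88 on the log2 scale to 48 h in WT, and the Glud1KO libraries at 48 h lay under all WT libraries (log2 fold change -1.78, SE 0.25, edgeR adjusted p 4.75e-06). Kif11 in the WT libraries measured 104, 104 and 99.1 CPM in myoblasts, 2.7, 2.83 and 2.75 at 48 h and 0.776, 1.08, 1.79 and 1.65 at 72 h. Kif11 in the Glud1KO libraries measured 114, 112 and 111 CPM in myoblasts, 0.963 and 0.839 at 48 h and 1.13, 0.834, 0.937 and 0.666 at 72 h. The 48 h values of Kif11 did not overlap between genotypes, with Glud1KO lower at a log2 difference of -1.61 (SE 0.23, edgeR adjusted p 8.07e-06). In myoblasts 2 of the 5, Kif4 and Hmmr, were called higher in Glud1KO. Kif4 lost that call without replicate 1 of either genotype (adjusted p 0.0696 and 0.0648) and Hmmr without Glud1KO replicate 3 or WT replicate 1 or 3 (0.0736, 0.0718 and 0.088). At 48 h Kif2c (-1.35, adjusted p 0.0558) and Kif4 (-0.33, adjusted p 0.709) lost their calls with effective length offsets. Summed levels were 11 ± 1.11 and 3.79 ± 0.166 CPM in WT and Glud1KO at 48 h and 3.32 ± 0.546 and 2.42 ± 0.271 at 72 h.

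The midzone and cytokinesis genes were all lower in Glud1KO at 48 h as well, 6 of 6 with a median of -0.97. Kif20a, Kif23, Prc1 and Racgap1 build the central spindle, Ect2 activates RhoA there, and Anln anchors the contractile ring. Anln RNA was at 273, 283 and 280 CPM in WT myoblasts, 7.92, 5.79 and 7.39 at 48 h and 1.51, 1.27, 1.11 and 0.783 at 72 h. For Glud1KO, Anln values were 300, 293 and 295 CPM in myoblasts, 3.48 and 2.31 at 48 h and 1, 0.834, 0.767 and 0.932 at 72 h. Anln overlapped between genotypes at 72 h alone, and the 48 h difference was -1.28 (SE 0.16, edgeR adjusted p 5.21e-07); in myoblasts it was not called (log2 fold change 0.09, SE 0.045, edgeR adjusted p 0.219). Prc1, the microtubule bundler, was among the 3 largest rises in Glud1KO myoblasts. In WT libraries Prc1 stood at 185, 182 and 179 CPM in myoblasts, 6.78, 6.84 and 8.31 at 48 h and 0.868, 1.33, 1.42 and 1.24 at 72 h. In Glud1KO libraries Prc1 stood at 213, 211 and 220 CPM in myoblasts, 3.8 and 3.77 at 48 h and 0.878, 0.89, 1.28 and 1.2 at 72 h. The difference was 0.24 (SE 0.04, edgeR adjusted p 0.000169) in myoblasts and -0.96 (SE 0.12, edgeR adjusted p 1.3e-06) at 48 h, without overlap at either stage.

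Ect2 and Racgap1, which act together on RhoA, parted after 48 h. Ect2 in the WT libraries measured 108, 109 and 105 CPM in myoblasts, 7.59, 7.23 and 7.78 at 48 h and 0.548, 0.888, 1.11 and 0.865 at 72 h. Racgap1 RNA was at 171, 170 and 170 CPM in WT myoblasts, 9.96, 11.5 and 10.7 at 48 h and 12.1, 12.2, 13.1 and 11.5 at 72 h. From 48 to 72 h Ect2 fell 9.01-fold in WT, while Racgap1 changed by 0.18 (SE 0.066, edgeR adjusted p 0.0188) with overlapping libraries. In Glud1KO, Racgap1 was at 7.17 and 8.07 CPM at 48 h and 13.3, 11.8, 13.5 and 12 CPM at 72 h, and Ect2 at 5.67 and 5.56 and 0.753, 0.667, 1.02 and 0.866 CPM. The genotype differences at 48 h were -0.49 (SE 0.089, edgeR adjusted p 0.000148) for Racgap1 and -0.43 (SE 0.1, edgeR adjusted p 0.00226) for Ect2. They were -0.21 (adjusted p 0.343) and -0.07 (adjusted p 0.887) with effective length offsets, and neither was then called. In WT the rise of Racgap1 was not called with DESeq2, with scaling by library size only, when only the groups compared were fitted, or without WT replicate 1 at 48 h or replicate 3 at 72 h. In myoblasts 4 of the 6 were called higher in Glud1KO: Prc1, Ect2, Racgap1 and Kif20a. Racgap1 lost that call without Glud1KO replicate 3 (adjusted p 0.0503) and Kif20a without replicate 1 or 3 of Glud1KO or replicate 1 of WT (0.0834, 0.0676 and 0.0535).

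Among the genes of chromosome structure, Top2a, the topoisomerase that untangles sister chromatids, and Mki67, the coat of mitotic chromosomes, fell furthest between myoblasts and 72 h in WT, and the condensin subunit Smc4 least. In WT libraries Top2a stood at 394, 404 and 381 CPM in myoblasts, 7.64, 6.1 and 8.66 at 48 h and 0.548, 0.444, 0.37 and 0.371 at 72 h. In Glud1KO libraries Top2a stood at 431, 421 and 424 CPM in myoblasts, 1.6 and 1.15 at 48 h and 0.125, 0.5, 0.383 and 0.666 at 72 h. Top2a (ENSMUSG00000020914.17, chr11:98992943-99024189, minus strand) was 5.45-fold lower in Glud1KO at 48 h (log2 fold change -2.45, SE 0.19, edgeR adjusted p 2.54e-10), with no overlap, and the genotypes overlapped at 72 h. Mki67 in the WT libraries measured 182, 216 and 199 CPM in myoblasts, 4.79, 4.09 and 5.07 at 48 h and 0.274, 0, 0.0617 and 0.165 at 72 h. Mki67 in the Glud1KO libraries measured 218, 213 and 214 CPM in myoblasts, 0.588 and 0.996 at 48 h and 0.125, 0, 0.0852 and 0.133 at 72 h. Mki67 differed by -2.55 (SE 0.26, edgeR adjusted p 4.35e-08) at 48 h, and WT fell from there to 72 h with a log2 fold change of -5.00, the largest fall of the 45 genes. The genotype difference moved from myoblasts to 48 h by -2.56 (SE 0.2, edgeR adjusted p 4.56e-10) for Top2a and -2.66 (SE 0.27, edgeR adjusted p 4.77e-08) for Mki67.

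Smc4 kept more of its RNA than most members. Smc4 RNA was at 192, 199 and 187 CPM in WT myoblasts, 24.1, 21.9 and 23.7 at 48 h and 17.1, 16.2, 15 and 16.3 at 72 h. For Glud1KO, Smc4 values were 212, 214 and 214 CPM in myoblasts, 17.7 and 16.9 at 48 h and 13.7, 15.8, 15.4 and 15.1 at 72 h. Smc4, at 14.97 TPM, was the most abundant of the 45 genes per unit length in WT at 48 h. It was lower in Glud1KO at 48 h by -0.43 (SE 0.067, edgeR adjusted p 2.42e-05), without overlap. Smc2, its partner in both condensin complexes, had 48 h values in Glud1KO that lay under all WT values of 48 h and of 72 h. In WT libraries Smc2 stood at 143, 144 and 138 CPM in myoblasts, 5.36, 4.96 and 5.1 at 48 h and 3.06, 3.3, 2.59 and 3.5 at 72 h. In Glud1KO libraries Smc2 stood at 161, 157 and 156 CPM in myoblasts, 2.19 and 2.52 at 48 h and 2.95, 3.56, 3.11 and 3.33 at 72 h. From 48 to 72 h Smc2 fell in WT (log2 fold change -0.71, SE 0.097, edgeR adjusted p 3.03e-07) and rose in Glud1KO (log2 fold change 0.46, SE 0.14, edgeR adjusted p 0.0149), and the test of that difference gave 1.16 (SE 0.17, edgeR adjusted p 2.59e-05). The rise of Smc2 in Glud1KO was not called without replicate 1 at 48 h (adjusted p 0.148) or with effective length offsets (0.32, adjusted p 0.406). All 6 genes of the role were called lower in Glud1KO at 48 h, with a median of -1.61. In myoblasts 3 were called higher, Smc2, Smc4 and Ncapg. Smc2 and Smc4 lost that call without WT replicate 3 (adjusted p 0.0551 and 0.0685), and Ncapg without any myoblast library but WT replicate 1 (0.0582 to 0.151).

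Of the transcription factors that activate this wave, Mybl2 was called lower in Glud1KO at 48 h and Foxm1 was not; whether their changes differ was not tested. Foxm1 in the WT libraries measured 104, 105 and 107 CPM in myoblasts, 2.94, 4.01 and 4.08 at 48 h and 1.78, 1.33, 1.91 and 1.11 at 72 h. Foxm1 in the Glud1KO libraries measured 119, 116 and 112 CPM in myoblasts, 3.74 and 3.25 at 48 h and 1, 1.28, 1.45 and 1.27 at 72 h. Foxm1 overlapped between genotypes at 48 h and 72 h, and its 48 h difference of -0.09 was not called (edgeR adjusted p 0.724). Mybl2 RNA was at 48.2, 45.9 and 45.6 CPM in WT myoblasts, 0.854, 1.31 and 1.48 at 48 h and 0.137, 0.0634, 0 and 0.0824 at 72 h. For Glud1KO, Mybl2 values were 54.7, 51.3 and 51.1 CPM in myoblasts, 0.428 and 0.734 at 48 h and 0.0627, 0.111, 0 and 0.133 at 72 h. Mybl2 was lower in Glud1KO at 48 h, by -1.08 (SE 0.32, edgeR adjusted p 0.0132), on counts that were low in all 5 libraries, and this call was lost without Glud1KO replicate 1 (adjusted p 0.209) or WT replicate 3 (0.0711). In myoblasts neither was called: the values were 0.14 (SE 0.048, edgeR adjusted p 0.0609) for Foxm1 and 0.17 (SE 0.061, edgeR adjusted p 0.0697) for Mybl2, with no overlap between genotypes for either.

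What was left of each gene differed widely. At 48 h the median member retained 2.55% of its myoblast CPM in WT, from 1.28% for Nuf2 to 43.9% for Pttg1, and 0.989% in Glud1KO, from 0.277% for Nuf2 to 40.7% for Pttg1. No gene was under 1% in WT at that stage and 24 were in Glud1KO. At 72 h the median was 0.667% in WT, with 26 genes under 1% and Mki67 the lowest at 0.0628%, and 0.506% in Glud1KO, with 29 genes under 1% and Bub1 the lowest at 0.0376%. In each genotype 5 genes kept more than 5% at 72 h, and 4 when Ube2c is read from its shorter transcript alone, which leaves it at 0.937% in WT and 0.557% in Glud1KO and brings the genes under 1% to 27 and 30. For 8 genes (Nek2, Incenp, Mad2l1, Pttg1, Cenpf, Racgap1, Smc2 and Ncaph) both Glud1KO libraries at 48 h lay under every WT library at 72 h, which held for 37.8% of all genes tested, so this is no result about the members. The order of the genes by TPM was loose in the myotubes: of the 44 neighbouring pairs, libraries overlapped in 33 in WT myoblasts, 41 at 48 h and 40 at 72 h, and in 27, 38 and 42 in Glud1KO.

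**Figure D3:**
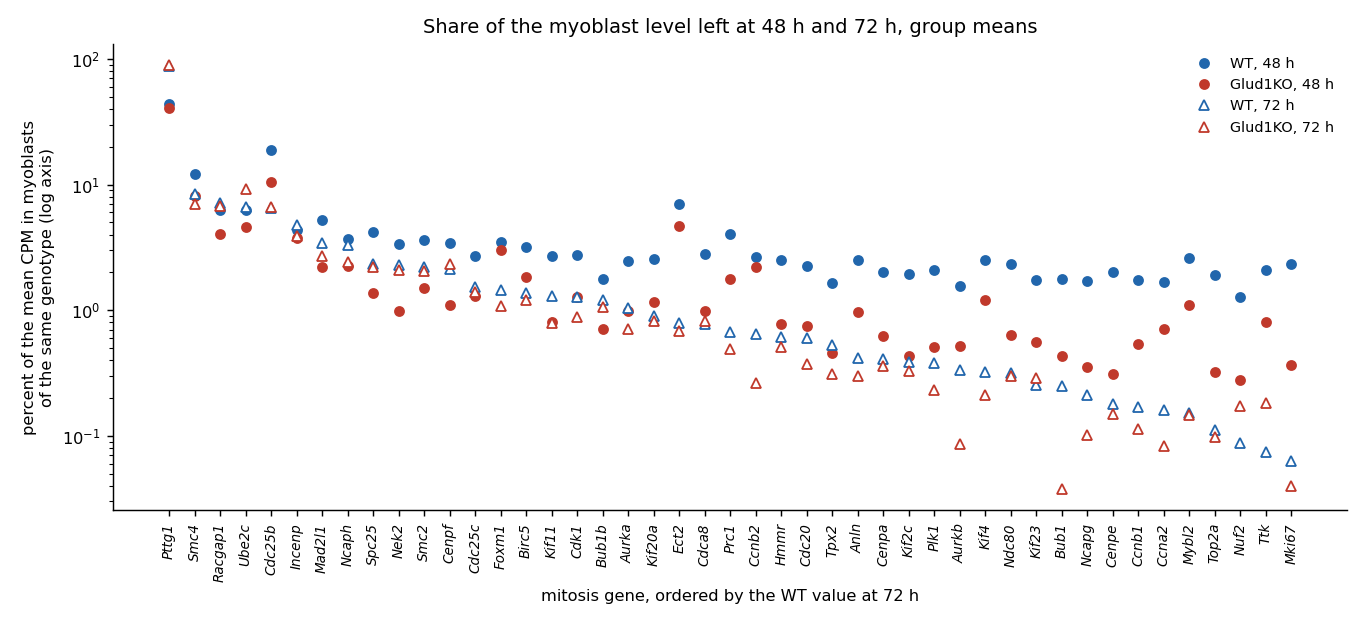
Percent of the myoblast CPM of the same genotype that each of the 45 mitosis genes retained at 48 h and 72 h (group means, log axis), ordered by the WT value at 72 h. Pttg1 stands highest at 72 h, at 88.5% in WT, Mki67 lowest in WT at 0.0628%, and the Glud1KO values at 48 h lie below the WT values at 48 h.

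Ube2c (ENSMUSG00000001403.13, chr2:164769898-164778822, plus strand) needs its transcripts told apart. In WT libraries Ube2c stood at 105, 105 and 104 CPM in myoblasts, 7.49, 6.31 and 5.74 at 48 h and 5.25, 5.84, 10.4 and 6.22 at 72 h. In Glud1KO libraries Ube2c stood at 122, 119 and 116 CPM in myoblasts, 5.56 and 5.45 at 48 h and 15.2, 9.73, 10.6 and 8.06 at 72 h. At 72 h the genotypes overlapped, and the called difference was 0.68 (SE 0.16, edgeR adjusted p 0.00385). The 967 nt transcript gave 99.58% of the gene's counts in WT myoblasts on average, 44.36% at 48 h and 15.01% at 72 h, and in Glud1KO 99.76%, 30.13% and 6.9%. Its level was 104.1 ± 0.7585, 2.851 ± 0.63 and 0.9756 ± 0.1186 CPM in WT and 118.9 ± 3.373, 1.658 ± 0.1425 and 0.6628 ± 0.2986 CPM in Glud1KO. The 2191 nt transcript instead went from 0.4326 to 3.663 and 5.957 CPM in WT and from 0.2893 to 3.846 and 10.24 CPM in Glud1KO. Its last exon, chr2:164777190-164778822 (GRCm38, 1633 bases), shares 592 exonic bases with Tnnc2, the fast troponin C gene of the opposite strand. Tnnc2 was at 31.6, 1110 and 3350 CPM in WT and 23.5, 1420 and 3490 CPM in Glud1KO on average. Whether counting used the strand is not given in the sources used here, so reads of Ube2c and Tnnc2 cannot be told apart there. From the 967 nt transcript alone, an alternative chosen after the data were seen, the 72 h difference was -0.63 with an edgeR adjusted p of 0.12, opposite in sign and not called. With effective length offsets the gene's difference was 0.45 (adjusted p 0.0736).

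**Figure D4:**
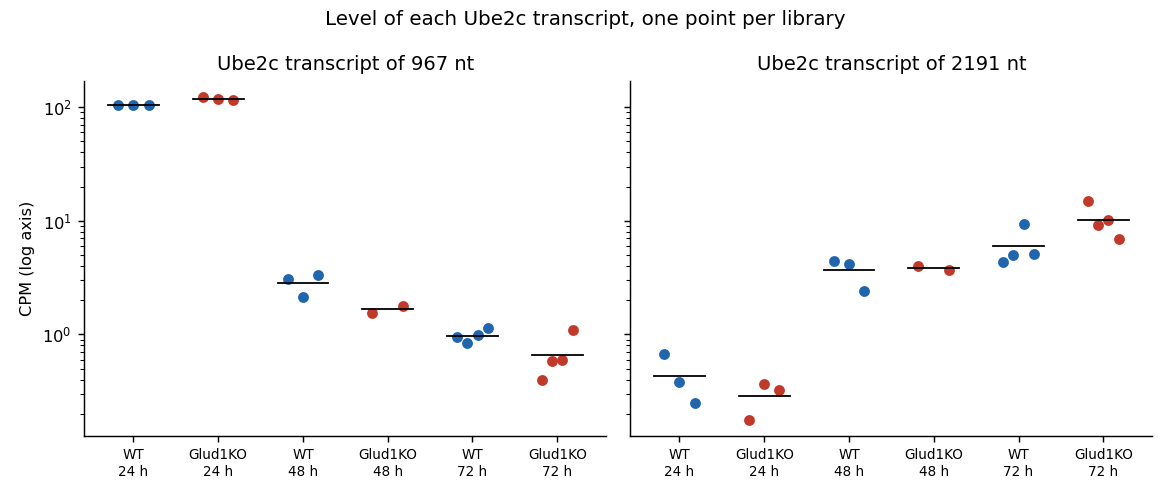
CPM (log axis) of the 967 nt and the 2191 nt transcript of Ube2c in each library, by genotype and stage, one point per library. The 967 nt transcript falls from above 100 CPM in myoblasts to 0.9756 (WT) and 0.6628 CPM (Glud1KO) on average at 72 h, while the 2191 nt transcript climbs to 5.957 and 10.24 CPM.

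In all, 14 of the 45 genes have an exon overlapped by another annotated gene, 12 of them only on the opposite strand. The longest overlaps were those of Kif20a with Cdc23 (1271 bases), Ncapg with Lcorl (944), Prc1 with Rccd1 (911) and Kif4 with Pdzd11 (832), and for these genes the share of reads from the partner was not tested.

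The rest of the pathway was read from lists of other genes, beside shares of all genes tested of 4.86% higher and 6.69% lower in Glud1KO myoblasts, 14.1% lower and 11% higher in Glud1KO at 48 h, 6.72% lower in Glud1KO at 72 h, and 42.6% lower and 42.4% higher from myoblasts to 48 h in WT. Of 82 further mitosis genes, 22 were called higher and none lower in Glud1KO myoblasts (median log2 fold change 0.16), 33 lower and 3 higher at 48 h (median -0.70), and 3 lower and none higher at 72 h. At 48 h the kinetochore scaffold Knl1 (-3.06) and Fam83d (-2.69) were furthest down, and Cdc25a (0.27) and Iqgap3 (0.26) were up. Of 41 S phase genes, 13 were called higher and none lower in Glud1KO myoblasts (median 0.14), where they summed to between 3102 and 3153 CPM in WT and between 3445 and 3539 CPM in Glud1KO. All 41 fell by 48 h in WT (median -4.27), and at that stage their sums overlapped, at 436 ± 17 and 435.7 ± 6.76 CPM in WT and Glud1KO (mean ± SD). Between genotypes at 48 h 11 were lower and 2 higher in Glud1KO (median -0.30), with the ligase Lig1 at -1.24 and the helicase subunit Mcm2 at 0.28. Of 15 genes of the APC/C itself, its subunits and the co-activator Fzr1, 10 fell and 3 rose by 48 h in WT with a median of -0.38. Between genotypes at 48 h the subunit Anapc1 (-0.16) was lower, and the subunit Anapc16 (0.19) and Fzr1 (0.18) were higher, with a median of 0.04 over the 15. Of 21 genes of the DREAM, MuvB and E2F machinery, 13 fell and 5 rose by 48 h in WT, and 4 were lower and 4 higher in Glud1KO at 48 h, Mybl1 lowest at -1.39 and the repressor E2f8 highest at 0.32. Of 9 cohesin genes 3 were lower and 1 higher there, with a median of -0.04.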

How the data were processed

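RNA was extracted and made into 19 libraries with RNeasy plus micro and TruSeq mRNA kits, per the labels, and sequenced. The authors deposited estimated counts and TPM per transcript, per the file headers; the submitters' processing notes name bcl2fastq 2.20, fastp 0.20.0, kallisto 0.46.1, edgeR 3.36 and GRCm38.p6 without saying what each did. Of 121843 transcripts, 121018 matched GENCODE M21; the other 825 held 0.2548% to 0.5074% of counts and were left out. Estimated counts were summed per gene and rounded, TPM was summed for order between genes, and lengths entered only one alternative. One edgeR 4.0.16 quasi-likelihood fit (R 4.3.3, limma 3.58.1) over all 6 groups, with TMM scaling and filterByExpr, tested 15123 genes, with Benjamini-Hochberg adjustment over all of them. Across genes the biological coefficient of variation came to 4.033%. The fit was also run on simulated counts, whose outcome is not given here, so that run lends no support to the calls. Estimated counts are not read counts, so counting intervals on them are approximate.

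Values in every library are given for the most abundant pair of genes of each role, for the 3 called genes with the largest rise and fall of each genotype comparison, and for the 3 with the smallest adjusted p of each change in genotype difference; for stage changes the 3 largest and 3 smallest falls could be named. Further members named beside these were chosen after their values were seen. The members, lists and tests were chosen with earlier results of these data known. Alternatives were other scalings, filters and fits, DESeq2 1.42.0, effective length offsets, Ube2c from its shorter transcript alone, a GC and length trend, a replicate block and leaving out each library. Same-numbered WT and Glud1KO libraries of a stage did not deviate together, and the labels do not call them pairs, so they were not treated as pairs. Proteins were not used here.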

Additional observations from a re-analysis of the deposited data

Results flagged for a closer look

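In 44 groups of 4 libraries, 4 held a library set apart from the other 3, and chance sets apart about 1 in 20 groups. These were Ccnb1 at 0.389 CPM in Glud1KO replicate 2 at 72 h, Cdc25b at 7.59 CPM in WT replicate 3 at 72 h, Cenpe at 0.4 CPM in Glud1KO replicate 4 at 72 h and Plk1 at 0.639 CPM in WT replicate 1 at 72 h. Each was the highest of its group, and none of the 4 genes was called between genotypes at 72 h.

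The difference between genotypes itself differed between stages. By edgeR's test of that change, 38 of the 45 mitosis genes moved downward in Glud1KO relative to WT between myoblasts and 48 h, and 21 moved upward between 48 and 72 h (20 with Ube2c read from its shorter transcript alone). The smallest adjusted p-values of the first change belonged to Top2a (-2.56 on the log2 scale), Cdc25b (-0.85) and Mki67 (-2.66). Those of the second belonged to Cdc25b (0.89), Smc2 (1.16) and Cenpf (1.76). In all 3 genes of the second change both Glud1KO libraries at 48 h lay under every WT library at 48 h. That change was computed from these same libraries, so this is no separate support. It held for 40 of the 45 genes and for 24.6% of all genes tested.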

How the results depend on the processing

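The counts of genes lower at 48 h or 72 h than in myoblasts stayed at 44 or 45 under every alternative run. The count called lower in Glud1KO at 48 h ran from 27 (effective length offsets) to 39, and from 32 to 38 without 1 library. With effective length offsets no gene was called higher in Glud1KO myoblasts (0 in place of 22), 0 higher and 1 lower at 72 h, 3 higher in Glud1KO from 48 to 72 h and 9 in the second change of genotype difference; the SE was then larger, 0.10 against 0.048 in the median for myoblasts. When only the groups compared were fitted that last count was 11. The count of genes rising in WT from 48 to 72 h was 1 in place of 2 with DESeq2, with library size only and with only the groups compared. From the 967 nt transcript of Ube2c alone the difference at 72 h was -0.63, reversed, and 0 genes were higher. Leaving out 1 library gave 14 to 28 genes higher in Glud1KO myoblasts, 0 to 1 lower at 72 h, 1 to 2 rising in WT from 48 to 72 h, and 10 to 23 in the second change. The cause of these moves was not tested. Leaving out a library changes both how many libraries are used and which, and these cannot be told apart.

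Within each stage, same-numbered WT and Glud1KO libraries correlated at -0.0609 to 0.0212 in their deviations from group means. Whether a number was shared across stages was not examined, so these values do not show what such libraries share. With a replicate block 20 genes were higher in Glud1KO myoblasts, 38 lower at 48 h and 1 higher at 72 h, and 38 and 21 were called in the changes of genotype difference. Of all genes called in either direction in myoblasts, 42.1% were higher in Glud1KO. That share of the calls was 29.3% with DESeq2 size factors, 27.5% with DESeq2 and 19.3% with effective length offsets. At 48 h the share was 43.9%, and 27% with library size only. Scaling by library size only also moved the median of all genes to -0.23 in WT and -0.31 in Glud1KO between myoblasts and 48 h. Depth limits the values of members that held few counts at 72 h.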
